A study of Mus musculus with 8 samples.

Results

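The genes described here were 42 genes that mark macrophages or carry out their work in tumours, listed by symbol. Of these, 41 had a probe set that the array's annotation names for them, among 18194 genes with one, and Spp1 was not analysed here. A filter on low signal left 39 of the 41 among 12976 genes tested, while Nos2 and Marco stayed below it and were not tested.

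The samples were 8 whole tumours grown under the skin of C57BL/6 mice that had been injected with MOPC cells, a murine oropharyngeal carcinoma line. The hosts were wildtype (WT) or lacked the endosomal Toll-like receptors 3, 7 and 9 (Tlr3/7/9-/-, called KO here), and tumours were taken 4 or 6 days after injection, with 2 arrays in each of the 4 groups. The same MOPC line was injected in every group, so the knockout was carried by the host and not by the injected cells, and the site was the flank skin rather than the mouth. The labels give neither age nor sex of the mice, and nothing says that the day 4 replicates came from separate animals, so p-values measure only the spread between these samples, which may be technical.

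Macrophages are phagocytes that enter a tumour largely as blood monocytes and mature there under the growth factor CSF1. They take up dying cells, lipoproteins and antibody-coated particles through scavenger, apoptotic cell and Fc receptors, and break the cargo down in lysosomes rich in cathepsins. In tumours they are known for a wide range of states, from inflammatory cells that make nitric oxide through Nos2 to cells that break down arginine through Arg1 and carry the receptors Mrc1 and Cd163.

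Each array had been scaled to a trimmed mean signal of 1000, and replicates of a group had Spearman correlations of 0.941 to 0.953 over all probe sets. Tlr7 had signals of 10.8 to 80.1 in KO tumours and 382.9 to 673.4 in WT tumours, and Tlr3 was also lower in every KO tumour (224 to 427 against 544 to 811), while Tlr9 was below the filter. Xist, which female cells transcribe from their silenced X chromosome, read 5579 to 7121 in the day 6 tumours and 44.6 to 142.1 in the day 4 tumours, and the Y-linked Eif2s3y read 10.2 to 33 and 798.1 to 1135.7, so day and host sex cannot be told apart in any comparison between days. Skeletal muscle genes stood apart in 3 tumours, of which WT day 4 replicate 2 (Acta1 at 34992) and KO day 6 replicate 2 (22022) held most, followed by KO day 4 replicate 2 (9824). The other 5 tumours had Acta1 at 336.4 to 652.8. Of the 8 muscle genes listed 7 were tested, and their summed signal was 952.5 and 127529 at WT day 4, 999.3 and 18108 at KO day 4, 900.3 and 723.9 at WT day 6, and 703 and 46477 at KO day 6. Results below are given without WT day 4 replicate 2 and KO day 6 replicate 2 where that matters. KO day 6 replicate 2 also held Krt10, a keratin of the upper epidermis, at 9763 against 467.9 to 599.4 elsewhere.

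**Figure D1:**
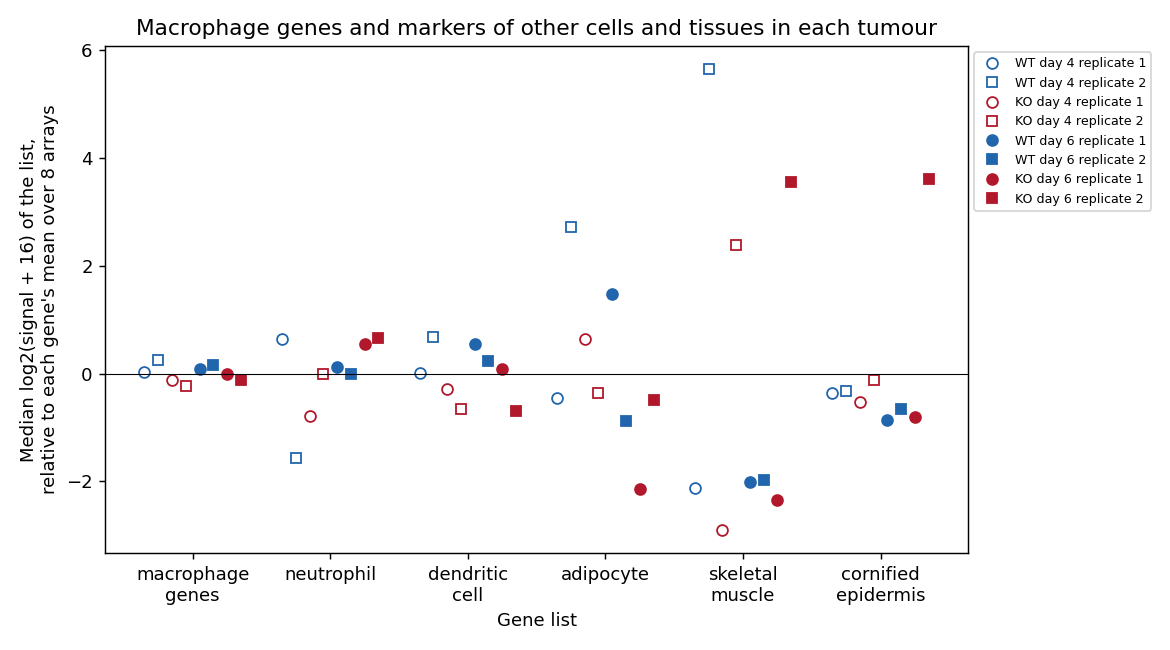
Median of each gene list in each tumour, as log2(signal + 16) after subtracting every gene's own average of 8 arrays, with open symbols for day 4, filled symbols for day 6, blue for WT and red for KO. The macrophage genes lie between -0.24 and 0.26 in all 8 tumours, while the skeletal muscle list spans -2.90 to 5.64 and the adipocyte list -2.14 to 2.71.

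Macrophage transcripts were present in every tumour. Adgre1, which encodes the F4/80 surface receptor used to identify mouse macrophages, had signals of 3247 to 8908, and Cd68, a lysosomal membrane glycoprotein of macrophages, had 4942 to 10048. Csf1r, the receptor for CSF1 and no member of the list, read 13982 to 24010. The inducible nitric oxide synthase Nos2 (11.9 to 121.8) and the bacteria-binding scavenger receptor Marco (15.7 to 173.2) were the exceptions, each with a mean below the filter of 78.6 and single tumours above it, whereas Arg1, the arginase of alternatively activated macrophages, read 11996 to 28014. In bulk tumour RNA, fewer macrophages and less of a transcript per macrophage cannot be told apart, here and in each comparison that follows. Nor can either be told from a different share of other cells and tissue in the tumour.

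**Figure D2:**
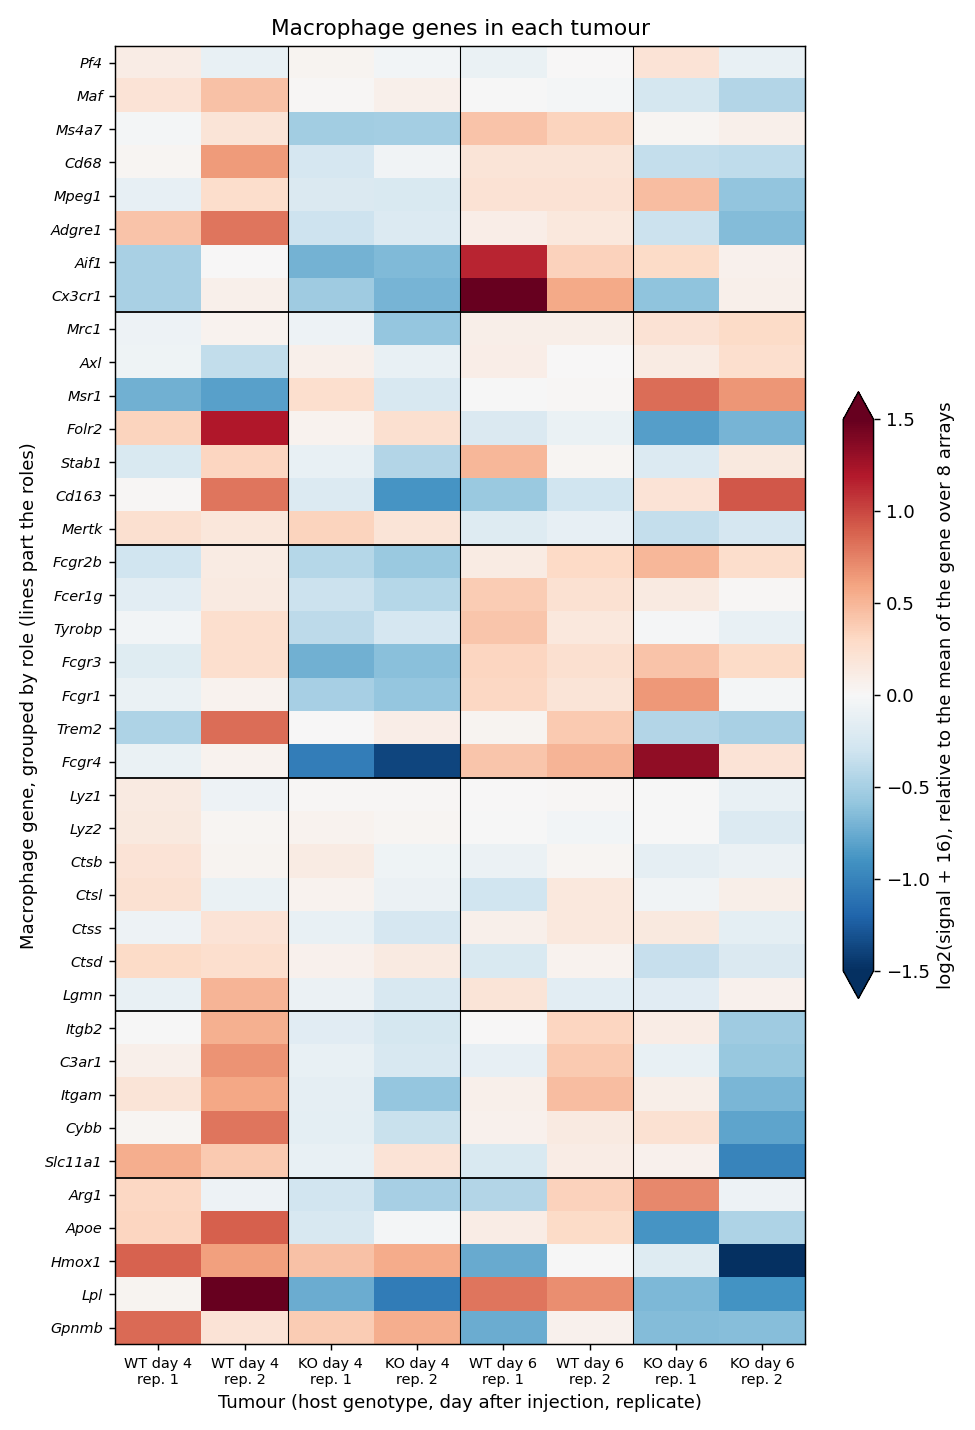
Each of the 39 tested genes (rows, grouped by role) in each of the 8 tumours (columns), coloured by log2(signal + 16) relative to the mean of the gene; colours saturate at -1.5 and 1.5. The lysozyme and cathepsin block is pale throughout, Fcgr4 is at its darkest blue in both KO day 4 tumours, and Lpl and Adgre1 are blue in the 4 KO tumours.

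The first question was whether macrophage genes differed between KO and WT tumours of the same day. At day 4, 36 of the 39 genes had a lower mean in KO tumours and 3 a higher one, with a median log2 fold change of -0.40 beside 0.01 over all genes tested, of which 48.3% had a lower mean. In 27 of the 39 (69.2%) both KO tumours lay below both WT tumours, which was so for 16.8% of all genes, and in 1, Msr1, both lay above (19.6% of all genes). At day 6, 28 genes had a lower mean and 11 a higher one, with a median of -0.29 beside -0.01 over all genes, of which 51.7% had a lower mean. The 2 groups parted downward in 15 of the 39 genes (38.5%, against 20.9% of all genes) and upward in 4 (10.3%, against 16.1%).

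Dendritic cell and natural killer cell genes had lower medians in KO tumours as well, while other leukocyte genes did not all follow at day 6. Of 11 dendritic cell genes 9 were tested, with a median log2 fold change of -0.59 at day 4 and -0.65 at day 6 (1 of 9 positive on each day), limma called 1 of them, the lectin Cd209a, lower at day 6, and their summed signal was 2876 and 4298 in WT and 2241 and 2042 in KO tumours at day 4, and 5177 and 4201 in WT and 3146 and 1677 in KO tumours at day 6. Of 7 natural killer cell genes 5 were tested, with medians of -0.47 and -0.63 (1 and 0 of 5 positive) and sums of 1413 and 2319 against 1348.5 and 1620 at day 4, and 2873.5 and 2242 against 2105 and 1379 at day 6. The other leukocyte lists with tested genes all had a negative median at day 4. At day 6 those of neutrophil and mast cell genes were positive and the rest negative. Of 7 tested neutrophil genes 3 were positive at day 4 (median -0.14) and 7 at day 6 (0.67). Of 5 tested mast cell genes 1 was positive at day 4 (-0.37) and 4 at day 6 (0.48). Medians at day 4 and day 6 were -0.11 and -0.09 for monocyte genes and -0.04 and -0.26 for T cell genes. They were -0.66 and -0.31 for 2 B cell genes, and -0.08 and -0.12 for 2 Langerhans cell genes. The part of all these cells in the macrophage values was not tested.

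None of these genes passed the test on its own. limma (all 8 arrays in a model of 4 group means, Benjamini-Hochberg adjustment over all 12976 genes) called 0 of the 39 between KO and WT at day 4 and 0 at day 6, where it called 0.0154% of all genes on either day. At an unadjusted p under 0.05 it had 15 lower and 1 higher at day 4 and 9 lower and 2 higher at day 6, against 3.26% lower and 3.85% higher, and 4.01% lower and 2.34% higher, of all genes. The methods' t-test after the same adjustment also called 0 on both days. With 2 arrays in a group, the number of arrays limits the precision.

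**Figure D3:**
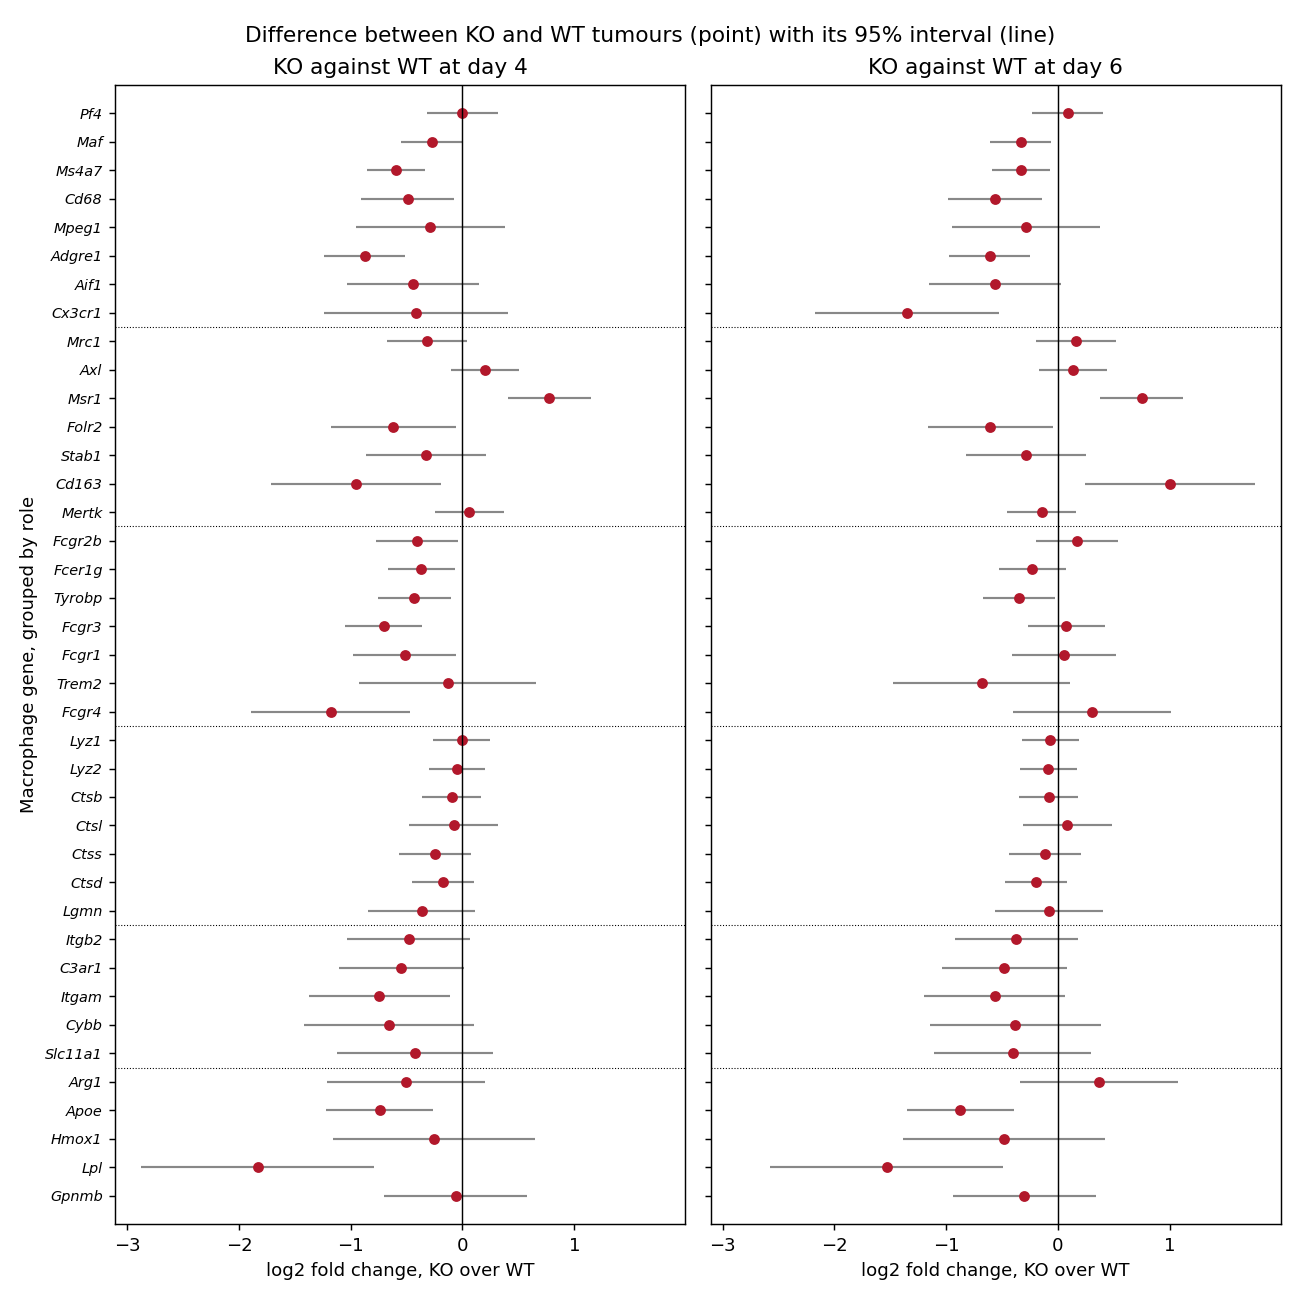
The log2 fold change of KO over WT tumours (point) with its 95% interval from limma (line) for the 39 tested genes at day 4 (left) and day 6 (right), grouped by role. Most points lie left of 0 at day 4, while at day 6 the 4 Fc receptors lie between 0.05 and 0.30 and Cd163, at -0.95 on the left, lies right of 0.

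Of the 8 lineage and surface identity genes, all had a lower mean in KO tumours at day 4 and 7 at day 6, with medians of -0.43 and -0.45, and without WT day 4 replicate 2 the median at day 4 was -0.18. For Adgre1, the signals were 6867 and 8908 in WT and 4112 and 4402 in KO tumours at day 4, and 5444 and 5658 in WT and 4059 and 3247 in KO tumours at day 6. All 4 KO tumours lay below all 4 WT tumours. The log2 fold change was -0.88 at day 4 (SE 0.16, 1.84-fold lower, limma adjusted p = 0.342) and -0.61 at day 6 (SE 0.16, 1.53-fold lower, adjusted p = 0.713). Cd68 gave the same order, with 6613 and 10048 in WT against 5419 and 6213 in KO tumours at day 4 and 7364 and 7379.9 against 5031 and 4942 at day 6. Here too the 4 KO tumours were the lowest, by a log2 fold change of -0.49 at day 4 and -0.56 at day 6 (SE 0.18 each, adjusted p = 0.647 and 0.760). Leaving out WT day 4 replicate 2 gave -0.19 for Cd68 and -0.69 for Adgre1 at day 4.

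Ms4a7 encodes a 4-transmembrane protein of the MS4A family that is characteristic of macrophages. It read 7360.3 and 8593 in WT against 5244 and 5258 in KO tumours at day 4, and 10114 and 9503 against 7660.0 and 7923 at day 6. The KO tumours were lower on each day, with the WT tumours of day 4 overlapping the KO tumours of day 6, and the log2 fold change was -0.60 at day 4 (SE 0.11, adjusted p = 0.352) and -0.33 at day 6 (SE 0.11, adjusted p = 0.760).

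Cx3cr1, the fractalkine receptor of monocytes and their offspring, differed mainly at day 6. It read 509.5 and 762.2 in WT and 491.7 and 437.1 in KO tumours at day 4, then 2210.0 and 1076 in WT and 469.0 and 756.7 in KO tumours at day 6. The WT tumours of day 6 stood above all others but were themselves far apart, and the log2 fold change at day 6 was -1.35 (SE 0.36, adjusted p = 0.713), ranging from -1.86 to -0.84 as single arrays were left out. A second Cx3cr1 probe set gave -1.35 as well. Of the other identity genes, Aif1 (the cytoskeletal protein IBA1), Mpeg1 (the pore-forming perforin-2) and the transcription factor Maf had log2 fold changes of -0.56 to -0.29 at day 6 and -0.44 to -0.28 at day 4, and the chemokine Pf4 had 0.09 and -0.00. At day 6, Mpeg1 turned to 0.24 without KO day 6 replicate 2, and Pf4 to -0.07 without replicate 1. For Maf the sign at day 6 held in 1 of the 5 other probe sets above the filter, which gave -0.05 to 0.51.

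A pair of genes of lipid handling, Apoe and Lpl, had lower readings in every KO tumour. Apoe, the lipoprotein ligand that macrophages secrete, read 18468 and 27577 in WT against 12558 and 14498 in KO tumours at day 4, and 15981 and 18083 against 8036 and 10712 at day 6. No KO tumour reached any WT tumour, and the log2 fold change was -0.74 at day 4 and -0.87 at day 6 (SE 0.21 each, adjusted p = 0.507 and 0.711). Leaving out WT day 4 replicate 2 gave -0.45 at day 4, and leaving out KO day 6 replicate 2 gave -1.08 at day 6.

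Lpl, lipoprotein lipase, which releases fatty acids from triglycerides and is made by macrophages as well as by fat and muscle, had signals of 3710 and 12820 in WT and 2141 and 1734 in KO tumours at day 4. At day 6 it had 6312 and 5841 in WT and 2259 and 1933 in KO tumours. The 4 KO tumours sat close together below all WT tumours, and WT day 4 replicate 2 stood far above the rest. The log2 fold change was -1.83 at day 4 (3.56-fold lower) and -1.53 at day 6 (2.89-fold lower, SE 0.46 each, adjusted p = 0.466 and 0.756). Without WT day 4 replicate 1 or replicate 2, or without the pair of tumours with most muscle transcripts, limma called Lpl lower at day 6, and without replicate 1 also at day 4, while the value at day 4 spanned -2.72 to -0.94 as arrays were left out.

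Fat cells also make Lpl, and adipocyte markers differed between the tumours. Of 6 such genes 4 had a probe set annotated to that gene alone and 3 were tested, with no value at 0. The summed signal of these 3 was 695.8 and 5783 at WT day 4, 1283 and 865 at KO day 4, 3235 and 378.3 at WT day 6, and 170.1 and 465.9 at KO day 6. The highest sum was in WT day 4 replicate 2, which also had the highest Lpl, but WT day 6 replicate 2 had a sum below both KO day 4 tumours and an Lpl signal above them. Their part in the Lpl difference was not tested.

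**Figure D4:**
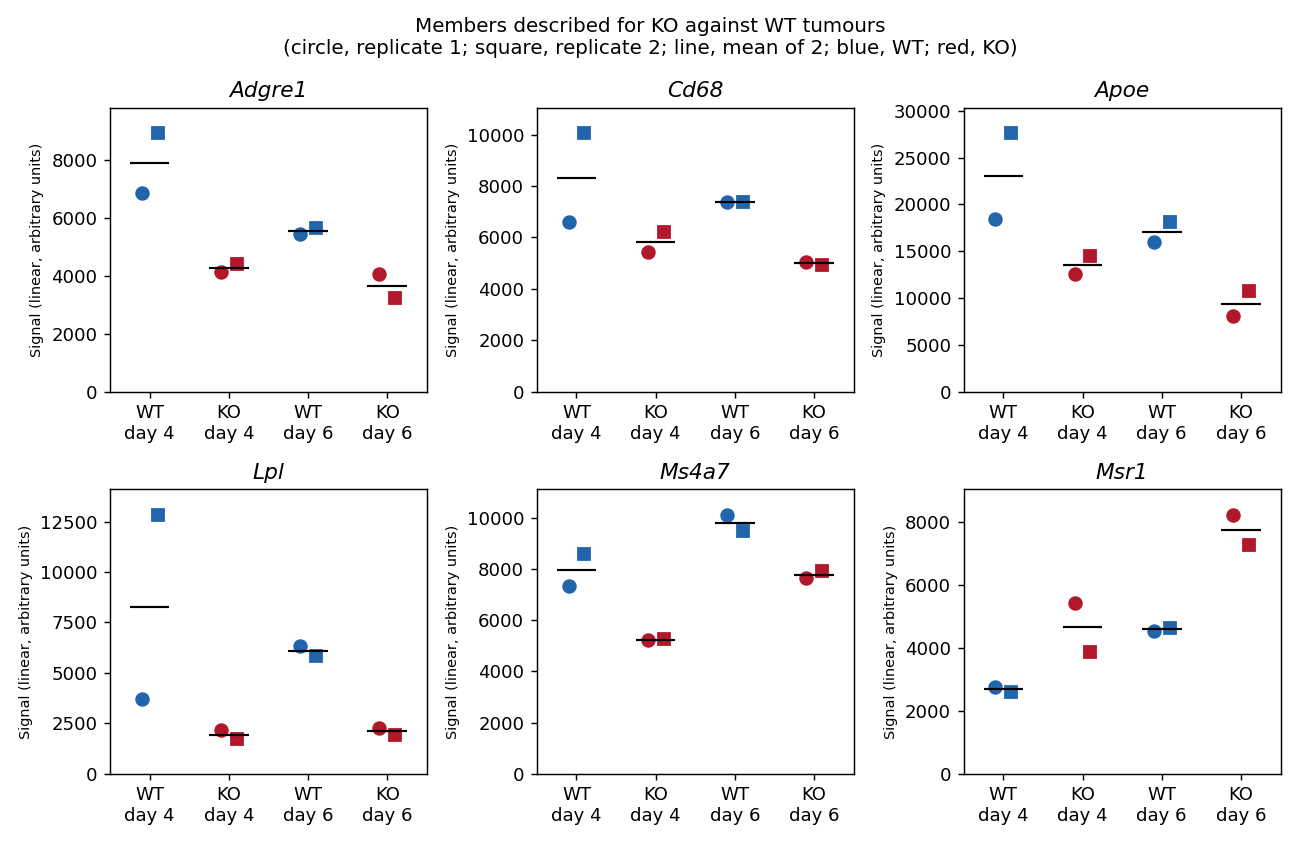
Linear signal of 6 genes in each tumour, by group; circles are replicate 1, squares replicate 2, and lines the mean of 2. For Adgre1, Cd68, Apoe and Lpl all 4 KO tumours (red) lie below all 4 WT tumours (blue); for Ms4a7 and Msr1 the genotypes part within each day, downward for Ms4a7 and upward for Msr1.

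The scavenger and uptake receptors did not share a direction. Msr1, the class A scavenger receptor for modified lipoproteins, was the one gene that was higher in both KO tumours on both days. It read 2767 and 2599 in WT and 5449 and 3889.6 in KO tumours at day 4, and 4552 and 4637 in WT and 8228 and 7282 in KO tumours at day 6. The log2 fold change was 0.78 at day 4 (1.71-fold, adjusted p = 0.397) and 0.75 at day 6 (1.68-fold, SE 0.16 each, adjusted p = 0.704), and the 3 other Msr1 probe sets gave 0.22 to 0.57 and 0.44 to 0.63. Folr2, the folate receptor of resident-like macrophages, went the other way, with 4281 and 7843 in WT against 3539.9 and 4019 in KO tumours at day 4, and 2927 and 3179.8 against 1905 and 2097 at day 6. The 2 groups parted on each day, and the log2 fold change was -0.62 and -0.61 (SE 0.24 each, adjusted p = 0.667 and 0.770). Leaving out WT day 4 replicate 2 gave -0.18 for Folr2 at day 4.

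For a pair of receptors of alternatively activated macrophages, the order of KO and WT tumours turned between the days, by a narrow margin for Mrc1. Cd163, the haemoglobin-haptoglobin scavenger receptor, read 2111 and 3638 in WT and 1804 and 1126 in KO tumours at day 4, and 1413 and 1688 in WT and 2411 and 3997 in KO tumours at day 6. KO tumours were thus both lower at day 4 (log2 fold change -0.95, SE 0.33, adjusted p = 0.606) and both higher at day 6 (0.9999, SE 0.33, adjusted p = 0.760). The mannose receptor Mrc1 did the same within a narrower range, with 19453 and 21166 against 19382 and 13682 at day 4 and 21757 and 21799 against 23812 and 24929 at day 6. Its log2 fold changes were -0.32 and 0.16 (SE 0.16 each). KO day 4 replicate 1 lay just below WT day 4 replicate 1, and leaving out KO day 4 replicate 2 gave -0.07 at day 4. For Cd163, the value at day 6 was 0.64 without KO day 6 replicate 2 and 1.36 without KO day 6 replicate 1. The apoptotic cell receptors Axl and Mertk and the clearance receptor Stab1 had log2 fold changes of -0.32 to 0.20 at day 4 and -0.29 to 0.14 at day 6.

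Fc receptors bind antibody-coated targets. The adaptors Fcer1g and Tyrobp carry ITAM motifs, through which activating Fc receptors (with Fcer1g) and other receptors signal. All 7 genes of this group had a lower mean in KO tumours at day 4, with a median log2 fold change of -0.43, and 4 of 7 a higher one at day 6 (median 0.05). Without KO day 6 replicate 1, 2 of 7 were higher at day 6 (median -0.29), and without WT day 6 replicate 2, 3 of 7 (median -0.00). Without KO day 6 replicate 2, the tumour with muscle and skin transcripts, the 4 Fc receptor genes had 0.15 to 0.86 at day 6. Trem2, Tyrobp and Fcer1g then had -0.66 to -0.17. At day 4 the receptor Trem2 turned to 0.51 without WT day 4 replicate 2. At day 4 the low-affinity receptor Fcgr3 read 7954 and 10792 in WT against 5497 and 5869.6 in KO tumours (log2 fold change -0.70, SE 0.15, adjusted p = 0.435). Fcgr4, an activating receptor for IgG2 antibodies, read 1444 and 1615 against 751.2 and 588.9 (-1.18, SE 0.31, adjusted p = 0.466). In both genes the KO tumours lay below the WT tumours at day 4, whereas at day 6 the groups overlapped and the log2 fold changes were 0.07 and 0.30, of which that of Fcgr4 turned to -0.25 without KO day 6 replicate 1. Tyrobp and Fcer1g were lower in both KO tumours on both days, by -0.43 and -0.37 at day 4 and -0.35 and -0.23 at day 6.

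The integrin and phagosome genes were the chains Itgam and Itgb2 of the complement receptor CR3, the anaphylatoxin receptor C3ar1, the oxidase subunit Cybb and the phagosomal metal transporter Slc11a1. All 5 had a lower mean in KO tumours on both days, with a median log2 fold change of -0.55 at day 4 and -0.41 at day 6. Itgam read 2784 and 3639 in WT against 2209 and 1623 in KO tumours at day 4, where the groups parted, and 2565 and 3363 against 2591 and 1509 at day 6, where they did not. For each of the 5, the lowest of the 4 day 6 signals was in KO day 6 replicate 2, the tumour with muscle and skin transcripts, and their part in these values was not tested. Without that tumour alone, the median of the 5 at day 6 was -0.05, and Cybb and Slc11a1 had positive values (0.13 and 0.12). Without WT day 4 replicate 2, the median at day 4 was -0.27. Without both tumours, the median over all 39 macrophage genes was -0.11 at day 6, with 22 negative, and -0.21 at day 4, with 35 negative.

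On the probe sets used, lysozymes and lysosomal proteases varied little. The 7 genes of this group had log2 fold changes between -0.37 and -0.00 at day 4 and between -0.19 and 0.08 at day 6. Lyz2 read 31240.3 to 40059 and the protease Ctsb 29100.3 to 36824 over the 8 tumours. Dimmer probe sets above the filter differed more for the cathepsins. For Ctsb they gave -0.29 to -0.15 at day 4 and -0.36 to -0.14 at day 6. The other Ctsl probe set gave -0.18 and -0.60, where the one used had 0.08 at day 6. Those of Lyz1 gave -0.18 to 0.02 and -0.08 to 0.14. Lyz1 and Lyz2 are close relatives whose transcripts can bind the same probes, so they are no separate readings. The cathepsins Ctsl, Ctss and Ctsd and the asparaginyl endopeptidase Lgmn had overlapping groups at day 6, and limma gave adjusted p of 0.854 to 0.966 over all 7.

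Over both days together, 34 of the 39 genes had a lower mean in KO tumours and 5 a higher one, with a median log2 fold change of -0.30 beside 0.00 over all genes, of which 49.8% had a lower mean. Without the pair of tumours with most muscle transcripts the median was -0.13, with 32 negative. limma called 0 of the 39, where it called 0.0308% of all genes, and at an unadjusted p under 0.05 it had 15 lower and 1 higher, against 4.78% and 3.91% of all genes. In 4 genes (10.3%, against 1.66% of all genes), Adgre1, Cd68, Apoe and Lpl, all 4 KO tumours lay below all 4 WT tumours, and in 0 genes did they lie above (0.64% of all genes). The log2 fold changes with the smallest adjusted p were 0.76 for Msr1 and -0.74 for Adgre1 (SE 0.11 and adjusted p = 0.127 for each), -0.46 for Ms4a7 (adjusted p = 0.194), -0.81 for Apoe (0.210), -1.68 for Lpl (0.234) and -0.53 for Cd68 (0.354). Single tumours moved some of these values. WT day 4 replicate 2 had the most muscle and adipocyte transcripts. With it as the only WT tumour of day 4, Adgre1 had -0.84, Cd68 -0.68, Apoe -0.95 and Msr1 0.79. Leaving it out instead gave -0.65, -0.38, -0.66 and 0.74.

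The second question was how macrophage genes differed between day 6 and day 4 in each host, comparisons in which day also stands for host sex. In WT tumours, 16 of the 39 genes had a higher mean at day 6 and 23 a lower one, with a median log2 fold change of -0.11 beside 0.01 over all genes, of which 48.9% had a lower one. The direction rested on single tumours, since the median was 0.12, with 16 negative, without WT day 4 replicate 2 and 0.03, with 18 negative, without WT day 6 replicate 1. limma called 1 higher and 0 lower, or 2.56% and 0%, while 4.16% of all genes were called higher and 1.66% lower. The groups of WT tumours parted upward in 9 genes and downward in 12, shares of 23.1% and 30.8% beside 29.1% and 24.6% of all genes.

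The called gene was Msr1, which rose from 2767 and 2599 to 4552 and 4637 (log2 fold change 0.77, SE 0.16, 1.71-fold, adjusted p = 0.0341). Its 3 other probe sets gave 0.03 to 0.90. Aif1 had 1922 and 2705 at day 4 and 5984 and 3424 at day 6 (0.98, adjusted p = 0.0618), and Cx3cr1, with the signals given above, had 1.29 (adjusted p = 0.0709). Both day 6 tumours were above both day 4 tumours for each of the 3. Lower at day 6 in both tumours were Folr2 (-0.92, adjusted p = 0.0630), Adgre1 (-0.49, adjusted p = 0.0973) and Gpnmb, a glycoprotein of lipid-laden macrophages, which read 3298 and 2104 at day 4 and 1081 and 1913 at day 6 (-0.87, adjusted p = 0.100).

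The Msr1 call in WT tumours was lost without any one of the 8 arrays, and also with the mean of all probe sets, the compared groups alone or no trend. Centring each array on its median, which moved the median of all genes by 0.18 in this comparison and by 0.17 in KO tumours, gave 4 higher and 1 lower in WT tumours: Msr1, Aif1, Cx3cr1 and Ms4a7 above and Folr2 below.

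In KO tumours, 23 of the 39 genes had a higher mean at day 6 and 16 a lower one, with a median log2 fold change of 0.06 beside -0.00 over all genes, of which 50% had a lower one. Here too the direction was not stable, with a median of -0.11 without KO day 6 replicate 1 and -0.04 without KO day 4 replicate 2, each with 20 negative. limma called 6 higher (15.4%, against 3.71% of all genes) and 1 lower (2.56%, against 2.52%). The groups parted upward in 13 genes and downward in 13, or 33.3% each, beside 30.7% of all genes in each direction. Of the 6 genes that rose, 4 were the Fc receptors, and the others were Msr1 and Ms4a7. With each array centred on its median, limma called 10 higher, these 6 with Cd163, Mrc1, Fcer1g and Aif1, and 0 lower.

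Fcgr4 rose most. It read 751.2 and 588.9 in KO tumours at day 4 and 3919.6 and 1798 at day 6, with day 6 replicate 1 far above its partner (log2 fold change 1.97, SE 0.31, 3.92-fold, adjusted p = 0.0211). Fcgr3 rose from 5497 and 5869.6 to 12152 and 11003 (1.02, SE 0.15, 2.03-fold, adjusted p = 0.0183). Fcgr2b, the inhibitory Fc receptor, rose from 11154 and 10181 to 21135 and 17969 (0.87, SE 0.16, 1.83-fold, adjusted p = 0.0271). Fcgr1, the high-affinity receptor, rose from 2179 and 2054 to 4841 and 3018 (0.85, SE 0.20, 1.80-fold, adjusted p = 0.0470). In all 4 the day 6 tumours lay above the day 4 tumours, and for Fcgr1 and Fcgr4 they were also wide apart from each other.

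The other probe sets above the filter gave log2 fold changes of 0.98 to 1.04 for Fcgr2b (3 probe sets) and 0.73 for Fcgr1 (1 probe set). The signal of Fcgr2b came from a probe set whose name marks probes shared by several transcripts, and these receptor genes are related in sequence. The adaptor genes Fcer1g and Tyrobp had 0.46 and 0.26 (adjusted p = 0.0725 and 0.282). In WT tumours the 4 receptors had log2 fold changes of 0.24 to 0.49 with adjusted p of 0.290 to 0.434.

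**Figure D5:**
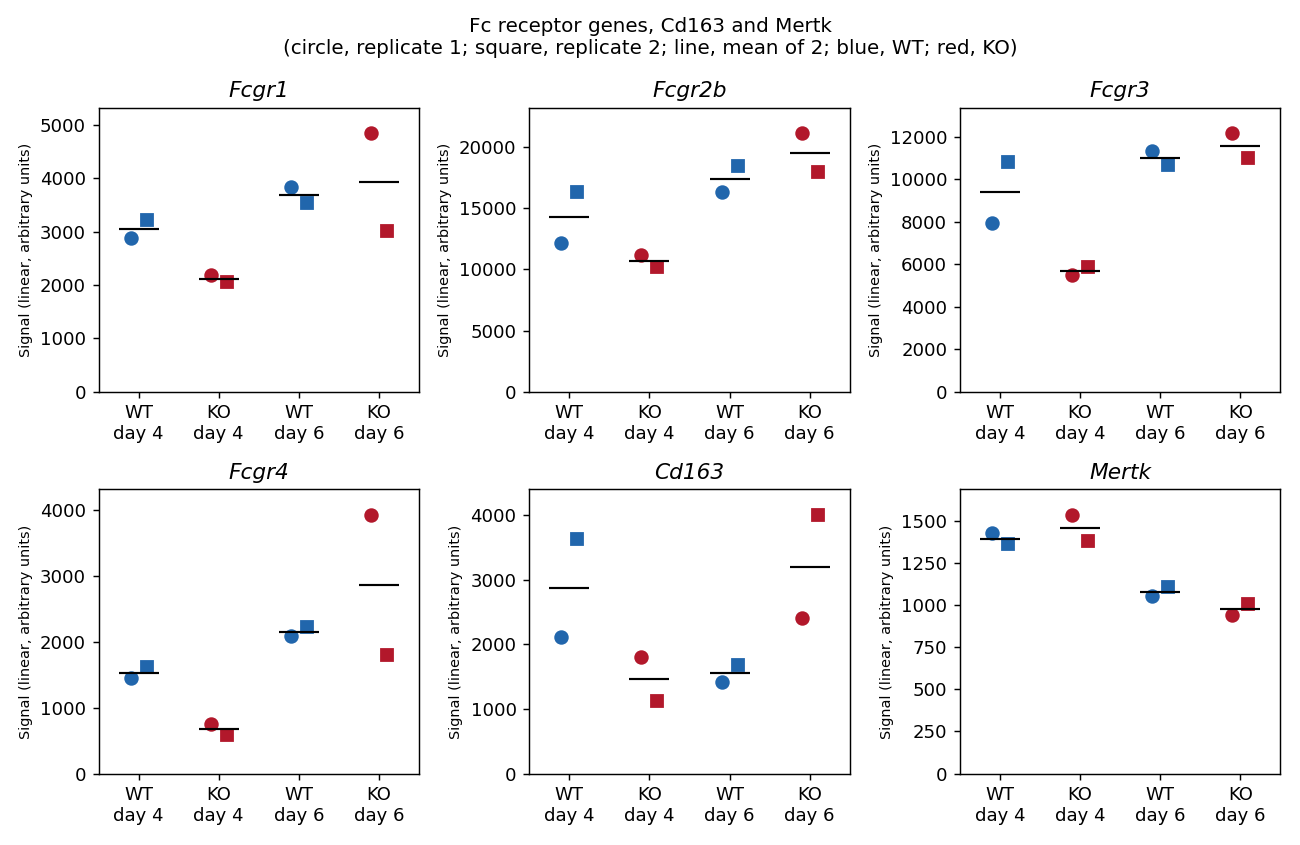
Linear signal of the 4 Fc receptor genes, Cd163 and Mertk in each tumour, by group; circles are replicate 1, squares replicate 2, lines the mean of 2. The KO day 4 tumours are lowest for all 4 Fc receptor genes, and Cd163 has KO below WT at day 4 and above it at day 6.

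Because the 4 Fc receptor genes rose together in KO tumours, the 150 bases before their start sites are shown, from RefSeq (GRCm38.p6), 5′ to 3′ on the strand of the gene. They lie at chr3:96293970-96294119 on the minus strand for Fcgr1, chr1:170976072-170976221 on the minus strand for Fcgr2b, chr1:171059404-171059553 on the minus strand for Fcgr3 (the first of 2 start sites) and chr1:171018776-171018925 on the plus strand for Fcgr4. Capitals mark the core GGAAGT of sites for PU.1, the transcription factor that sets up the myeloid lineage, or its reverse complement.
Fcgr1: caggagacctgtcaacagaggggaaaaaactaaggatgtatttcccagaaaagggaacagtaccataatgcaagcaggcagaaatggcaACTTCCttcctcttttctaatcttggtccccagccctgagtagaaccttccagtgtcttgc
Fcgr2b: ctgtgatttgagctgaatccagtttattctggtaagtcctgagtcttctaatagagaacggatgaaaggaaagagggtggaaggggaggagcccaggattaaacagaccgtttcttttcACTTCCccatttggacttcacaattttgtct
Fcgr3: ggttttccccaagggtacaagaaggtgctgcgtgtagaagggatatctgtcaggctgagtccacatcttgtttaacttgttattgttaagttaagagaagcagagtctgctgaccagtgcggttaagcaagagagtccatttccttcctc
Fcgr4: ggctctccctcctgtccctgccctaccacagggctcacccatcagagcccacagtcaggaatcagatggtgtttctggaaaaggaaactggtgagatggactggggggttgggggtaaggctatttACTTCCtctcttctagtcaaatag

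The core was present in the windows of Fcgr1, Fcgr2b and Fcgr4 and absent as these letters from that of Fcgr3. Over the 250 bases before a start site, 9 of the 31 macrophage genes with a window held it (29%), against 22.2% of 27025 genes. The same windows were searched on both strands for 3 further motifs, of which TGCTGAC and TGANTCA can share letters. The MAF site TGCTGAC was held by 1 of 31 (3.23%, against 4.31%), the E-box CACGTG of lysosomal genes by 3 (9.68%, against 6.86%: Ctsd, Ctsl and Lgmn), and the AP-1 site TGANTCA by 6 (19.4%, against 7.82%). These are matches of letters and no evidence of binding.

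Msr1 rose in KO tumours as well, from 5449 and 3889.6 to 8228 and 7282 (log2 fold change 0.75, SE 0.16, adjusted p = 0.0373). Ms4a7 rose from 5244 and 5258 to 7660.0 and 7923 (0.57, SE 0.11, adjusted p = 0.0335). Mertk, the receptor tyrosine kinase through which macrophages take up apoptotic cells, was the gene that fell, from 1533 and 1379 to 939.2 and 1009 (-0.57, SE 0.13, adjusted p = 0.0457). In each of the 3 genes the days parted. Below the threshold, Gpnmb had -1.11 (adjusted p = 0.0546), Folr2 -0.91 (0.0626), Mrc1 0.58 (0.0648), Hmox1, the haem oxygenase, -1.36 (0.0758) and Cd163 1.11 (0.0801).

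How many genes were called in KO tumours rested on single arrays. Without either KO day 4 tumour 0 were called, without KO day 6 replicate 1 there were 2 (Fcgr4 and Hmox1), without KO day 6 replicate 2 also 2 (Fcgr4 and Fcgr1), and without WT day 4 replicate 1 or 2 there were 12 and 13. Fcgr4 was called in 16 of 20 alternatives, Fcgr3 in 14, Fcgr2b in 12, Ms4a7 in 11, Msr1 in 9, Fcgr1 in 8 and Mertk in 7, with the sign kept in all 20 for each. The neutrophil list, some of whose cells also carry Fc receptors, had 7 of 11 genes tested and a summed signal of 2028 and 5037 at KO day 4, 8504 and 8329 at KO day 6, 12510.1 and 1325 at WT day 4 and 5079 and 4271 at WT day 6. It was higher in both KO tumours at day 6 than at day 4, and its part in the Fc receptor values was not tested.

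The third question was whether the KO effect differed between the days, which is also whether the change between days differed between hosts. limma called 0 of the 39 genes and 0% of all 12976, and at an unadjusted p under 0.05 it had 4 of the 39 higher and 0 lower, against 2.03% and 2.34% of all genes. The 4 were Cd163 (difference of log2 fold changes 1.95, SE 0.47), Fcgr4 (1.48, SE 0.44), Fcgr3 (0.78, SE 0.21) and Fcgr2b (0.57, SE 0.23), each with an adjusted p of 0.995, followed by Mrc1 (0.48, SE 0.22) and Arg1 (0.88, SE 0.44). For Arg1 the signals were 21013 and 16075 in WT and 13938 and 11996 in KO tumours at day 4, and 12491 and 21511 in WT and 28014 and 16014 in KO tumours at day 6, so the groups overlapped at day 6. A rise of Fc receptor genes that was particular to KO hosts was therefore not shown.

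Genes that work with these were read from lists. The lists held 13 tested macrophage transcription factors and CSF1 axis genes, 14 other lysosomal genes, 10 ITAM signalling genes, 4 partners of the NADPH oxidase, 8 genes each for apoptotic cell uptake and lipid handling, 6 iron genes and 9 arginine and alternative activation genes. Between KO and WT limma called 0 of these 72 genes at either day, and at an unadjusted p under 0.05 it had 1 higher (1.39%, against 3.85% of all genes) and 17 lower (23.6%, against 3.26%) at day 4, and 3 higher (4.17%, against 2.34%) and 8 lower (11.1%, against 4.01%) at day 6. Their medians at day 4 ran from -0.54 for arginine and alternative activation genes to 0.14 for iron genes, with -0.43 for the transcription factors and CSF1 axis. At day 6 they ran from -0.25 for the NADPH oxidase partners and for lipid handling to 0.12 for arginine and alternative activation genes. The transcription factors and CSF1 axis had -0.16. Of the arginine and alternative activation genes 6 of 9 were positive at day 6 (Arg2, Ass1, Slc7a2, Odc1, Chil3 and Il4ra). The others, Retnla (-1.38), Mgl2 (-0.48) and Clec10a (-0.27), were negative, as they were at day 4 (-1.58, -0.27 and -0.81). Csf1r itself read 16975 and 24010.3 in WT against 14799 and 13982 in KO tumours at day 4, and 19331 and 19544 against 15851 and 15794 at day 6. All 4 KO tumours lay below all 4 WT tumours, as in 1.66% of all genes. The log2 fold change was -0.49 at day 4 and -0.30 at day 6 (limma adjusted p = 0.557 and 0.824).

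Between the days limma called 2 higher and 2 lower of the 72 in WT tumours (2.78% each, against 4.16% and 1.66% of all genes) and 6 higher and 1 lower in KO tumours (8.33% and 1.39%, against 3.71% and 2.52%). Csf1, the macrophage growth factor, rose in WT tumours (log2 fold change 0.49, limma adjusted p = 0.0404) and in KO tumours (0.47, adjusted p = 0.0461). The transferrin receptor Tfrc rose in both (0.61 and 0.63, adjusted p = 0.0344 and 0.0348) and the phospholipid transfer protein Pltp fell in both (-0.71 and -0.76, adjusted p = 0.0409 and 0.0363). In WT tumours Mfge8, a bridge between apoptotic cells and phagocytes, fell (-0.56, adjusted p = 0.0343). In KO tumours the macrophage transcription factor Tfec rose (1.94, adjusted p = 0.0132), as did the fatty acid carrier Fabp5 (1.17, 0.0227), Il4ra, a chain of the interleukin-4 receptor (0.96, 0.0449), and the chitinase-like Chil3 (3.20, 0.0499). Chil3 read 220.2 and 215.7 at day 4 and 5943 and 758.7 at day 6, so that 1 tumour carried most of it.

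Across the 8 tumours, the macrophage genes did not move as a block. As a description, the Pearson correlation of log2 signal with Adgre1 was 0.918 for Cd68, 0.894 for Maf, 0.893 for Apoe, 0.883 for C3ar1 and 0.869 for Lpl. It was 0.055 for Fcgr4, 0.150 for Fcgr3 and -0.092 for Mrc1, and -0.876 for Msr1 and -0.847 for Axl. The 5 genes outside the list most like Adgre1 were Cd300lb (0.986), Podn (0.978), Mmp3 (0.977), Fxyd2 (0.956) and Zfp28 (0.955). These points share arrays, groups and scaling, and WT day 4 replicate 2 had the highest Adgre1 signal together with the most muscle and adipocyte transcripts.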

How the data were processed

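RNA of whole tumours was hybridised to Affymetrix MG-430_2.0 arrays. The authors deposited linear signal intensities per probe set, made with MAS5 according to the submitters' processing notes (no version stated). The labels state 200 ng of RNA as starting amount. A trimmed mean of 1000 on each array shows scaling to a common level, and no counts exist. Of 45101 probe sets, 34958 had 1 gene symbol in the platform annotation, 932 several and 9211 none. Each of 18194 genes was read from its probe set of highest mean on the log2(signal + 16) scale, which understates fold changes of low genes. Testing was limited to genes whose mean reached the 40th percentile over the probe sets (signal 78.6). Groups came from the labels. limma 3.58.1 (R 4.3.3) fitted 4 group means to 8 arrays (4 residual degrees of freedom, eBayes with trend), with Benjamini-Hochberg adjustment over 12976 genes and calls at 0.05, two-sided. A run on simulated data with planted changes served to check the code, and its outcome is not used here. Values per tumour are given for the called macrophage genes, filled to 6 per comparison by smallest p, and further macrophage genes were picked for mention with their values known. Alternatives were quantile normalization, centring, pseudocounts of 1 and 64, no filter and a 60th percentile filter, the mean of probe sets, the compared groups alone, no trend, a replicate block, leaving out arrays and the methods' t-test. Promoter windows came from RefSeq and were available for 31 of the macrophage genes. The macrophage genes and the other lists were chosen with earlier results of these data known.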

Additional observations from a re-analysis of the deposited data

Results flagged for a closer look

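The KO effect on Cd163 had opposite directions at the 2 days, with both KO tumours below both WT tumours at day 4 and above both at day 6. The difference of the log2 fold changes was 1.95 (limma adjusted p = 0.995), and ranged from 1.56 to 2.34 as single arrays were left out. The same value, read the other way, is the change from day 4 to day 6 in KO tumours less that in WT tumours, since Cd163 was lower at day 6 in both WT tumours and higher in both KO tumours. Mrc1 also had both KO tumours below WT at day 4 and above WT at day 6, with a difference of 0.48 (adjusted p = 0.995) and a range of 0.23 to 0.73. The order of Mrc1 at day 4 was narrow, with KO replicate 1 at 19382 and WT replicate 1 at 19453. None of these differences passed the test. Groups of 2 arrays are too small to look for single outlying tumours.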

How the results depend on the processing

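Between KO and WT, 0 macrophage genes were called at day 6 under every alternative except without the pair of tumours with most muscle transcripts (1), the methods' t-test without adjustment (6) and leaving out single arrays (0 to 1). At day 4 the exceptions from 0 were the unadjusted t-test (5) and leaving out arrays (0 to 1), and over both days 1, 7 and 0 to 6 in the same order as at day 6. From day 4 to day 6 in WT tumours, the 1 call became 5 with each array centred on its median, 3 with the unadjusted t-test, 0 to 3 as arrays were left out, and 0 with the mean of all probe sets, the compared groups alone, no trend or the t-test after adjustment. In KO tumours the 7 calls became 13 with the compared groups alone, 11 with the unadjusted t-test, 2 with the mean of all probe sets, 0 with no trend or the t-test after adjustment, and 0 to 13 as arrays were left out. The difference of the KO effect between the days had 0 calls in every setting, and the t-test was not run for it. The cause of these shifts was not tested. Centring left 12 of the 39 genes with a lower mean at day 6 in WT tumours, where 23 had one before. The genes named by rule in each comparison kept the sign of their fold change in every alternative (6 of 6, and 7 of 7 from day 4 to day 6 in KO tumours). They had been picked by call or smallest p in the same arrays, so a change of sign was unlikely from the start. Over all 39 genes, the sign changed under at least 1 alternative for 7 between KO and WT at day 4, 16 at day 6 and 11 over both days, for 19 between the days in WT and 15 in KO tumours, and for 28 in the difference.

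The deviations of same-numbered replicates from their group means correlated at 0.21 to 0.27 among WT day 4, KO day 4 and KO day 6, the groups whose replicate 2 held muscle transcripts, and at -0.12 to -0.03 between WT day 6 and the others, so the numbers were not taken to pair the samples. With the replicate block the calls in KO tumours between the days came to 2, Fcgr3 and Fcgr4, and no other count of called macrophage genes moved by more than 1.5 times. Over all genes, the block moved the calls between the days from 756 to 463 in WT and from 809 to 325 in KO tumours, and those between KO and WT at day 6 from 2 to 0. Under the other limma settings the counts over all genes between the days ran from 4 to 1784 in WT and from 3 to 1747 in KO tumours. With 2 arrays a group, 1 tumour can end a call, and MAS5 signals near the filter are imprecise.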
